A study of Danio rerio with 4 samples.

Results

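The genes described here encode the nuclear pore and the machinery that carries proteins and RNA through it, measured in RNA that came down with Ddx3xb, a DEAD-box RNA helicase, from early zebrafish embryos. They were chosen by symbol and a lower limit of abundance, with earlier results of these data known. A reference table pairs symbols, some in human style, with the Ensembl IDs. The symbols were those of nucleoporins, importins, exportins and transportins, Ran with its regulators and binding proteins, and the NXF and NXT genes of mRNA export. Of the 27205 gene IDs in either table, 61 carried such a symbol and 58 of these reached 1 RPKM (reads scaled to gene length and library size) in at least 1 of 2 tables, labelled 2 and 4 hours post-fertilization (hpf). These 58 stand among 13341 genes that met the same limit. The limit fell in a gap. The lowest members inside it were KPNA5, with 1.68 RPKM at 2 hpf and 0.582 RPKM at 4 hpf, and nup42, at 1.92 and 1.88 RPKM. Outside it were RCC1L (0.701 and 0.208 RPKM), ipo13a (0.0964 and 0.0554 RPKM) and nxf1a, listed at 0.156 RPKM at 4 hpf and not listed at 2 hpf. A further 10 IDs with matching symbols, among them KPNB1, nup153, nup54, NUP85, XPO5, XPOT and another TPR ID, are not analysed here.

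The nuclear pore complex is a ring-shaped channel through the nuclear envelope, built from scaffold rings, membrane anchors and flexible phenylalanine-glycine-rich nucleoporins that fill the opening. Importins and exportins, collectively karyopherins, bind cargo and cross the channel, and the small GTPase Ran loads and unloads them because its GTP-bound form is made on chromatin and is used up at the cytoplasmic side. Most mRNA leaves by a separate receptor, the NXF1-NXT heterodimer. Eggs store pore components and transport receptors that the embryo uses while its nuclei multiply quickly. Human DDX3X itself shuttles between nucleus and cytoplasm.

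Per the labels, all embryos had a wild-type genotype and received mRNA encoding FLAG-tagged Ddx3xb by injection. RNA was recovered on anti-FLAG beads from lysates made at 2 or 4 hpf and sequenced (RIP-seq), with 2 biological replicates at each age. The sample descriptions also say control without naming what is controlled. No input or mock precipitate was analysed here, so values are abundances in the precipitate, and enrichment cannot be computed.

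Each table holds 1 mean RPKM per gene, so no value here has an SD, no difference has a replicate check or a test, and a call is only a difference of size between 2 means. The steps of the lowest RPKM values gave the read totals of the libraries behind the means, 10115000 and 4874000 reads at 2 hpf and 15003000 and 7913000 reads at 4 hpf (rounded). The lowest member values at each age, NUP93 at 2 hpf and KPNA5 at 4 hpf, thus rested on 6.58 to 13.6 and on 9.21 to 17.5 reads per kilobase of gene over both libraries. The age labels and the embryo's own genes were at odds. All 8 measured early zygotic genes, such as noto (125 RPKM at 2 hpf, 9.21 RPKM at 4 hpf) and tbx16 (44.2 and 1.25 RPKM), were lower at 4 hpf, as were 3605 of 13341 tested genes. All 9 measured maternal genes, such as buc (53.4 and 295 RPKM), were higher, as were 9736 of 13341 tested genes. Of the 9, 7 lay over the median difference of all tested genes, and CCNB1 and ZAR1 lay below it. Every direction below rests on the labels, and would turn if they were exchanged. All 6 enveloping layer genes and both yolk syncytial layer genes that could be compared were likewise lower at 4 hpf, with krt4 at 17.8 and 0.356 RPKM. Of 10 listed markers of differentiated tissues, 6 matched an ID and only tfa passed 1 RPKM, at 2.104 and 0.258 RPKM. The part of any of these groups in the differences of transport genes was not tested. In whole-embryo lysates, fewer cells of a type and less RNA per cell cannot be told apart.

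As a group, the transport genes followed the bulk of the precipitated transcripts, except that few were at least 2-fold lower as deposited. Of the 58, 22 were at least 2-fold higher at 4 hpf on the scale of log2(RPKM + 1), against 33.0% of all tested genes. Only KPNA3 was at least 2-fold lower on that scale, against 10.9% of all tested genes. The median difference was 0.84 over the members and 0.66 over all tested genes, and 37 members lay over the latter. Among the more abundant genes the higher calls and the medians were closer, but not the lower calls. Where the higher of both values was 5 RPKM or more, 20 of 40 members were at least 2-fold higher, against 51.2% of all such genes, and the medians were 1.01 for members and 1.02 for all. None of the 40 was at least 2-fold lower, against 607 of 7017 such genes. The median RPKM of the members was 4.01 at 2 hpf and 7.54 at 4 hpf. In the order of all tested genes of each table, the median member stood at percentile 58.8 and 62.0, where 100 is the highest.

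**Figure D1:**
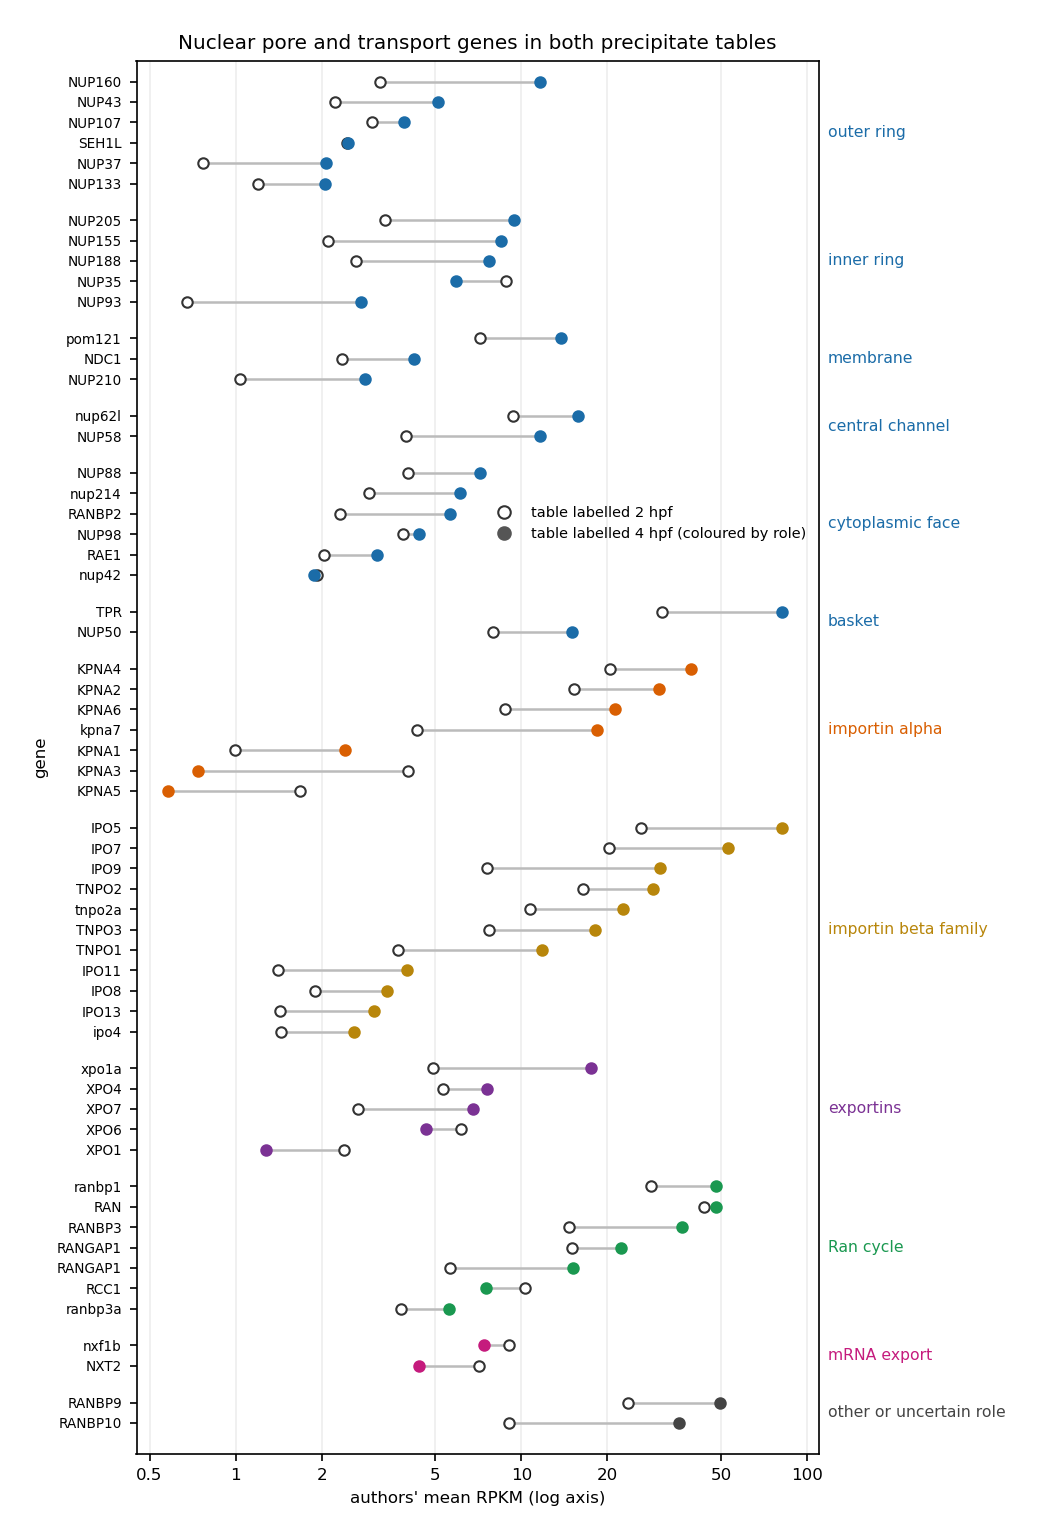
Authors' mean RPKM (log axis) of the 58 members, grouped by role, with open circles for 2 hpf and filled circles for 4 hpf. Most filled circles lie to the right; the widest step to the left is KPNA3, from 4.01 to 0.738 RPKM.

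How many members counted as higher or lower depended on how the tables were put on 1 scale. Against 22 higher and 1 lower as deposited, there were 34 and 1 after rescaling to an equal sum, 4 and 6 with quantile normalization, 3 and 5 when the 100 highest genes were left out of the sums, and 0 and 8 when the median ratio was set equal. The counts over all 13341 tested genes moved likewise. They were 4409 higher and 1452 lower as deposited, 6134 and 956 at an equal sum, and 1369 and 2082 with quantile normalization. Without the 100 highest they were 801 and 2222, and at the equal median ratio 347 and 2533. Under all 5 scalings, 29 members kept a positive difference and 7 a negative one, namely KPNA3, KPNA5, XPO1, XPO6, RCC1, NUP35 and NXT2, while 22 took either sign. RCC1 and XPO6 kept theirs by a small margin, at -0.04 and -0.0080 after rescaling to an equal sum. Every member of either sign was negative at the equal median ratio, so positive under all 5 means positive under that scaling. There, 30 of the 58 members lay over the all-gene median. The share of all tested genes that kept a sign was not counted. Calls in the roles below use log2(RPKM + 1) of the deposited values, unless a place relative to the median difference of all tested genes is given. The added 1 RPKM narrows differences at low levels, so some genes not called had plain RPKM ratios past 2. Relative to that median, 3 members (kpna7, IPO9 and RANBP10) lay at least 2-fold above, against 7.85% of all tested genes. The 7 members named as negative were also those that lay at least 2-fold below, against 21.2% of all tested genes. Both criteria are nearly the same cut on the same values, so their match is no separate support.

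**Figure D2:**
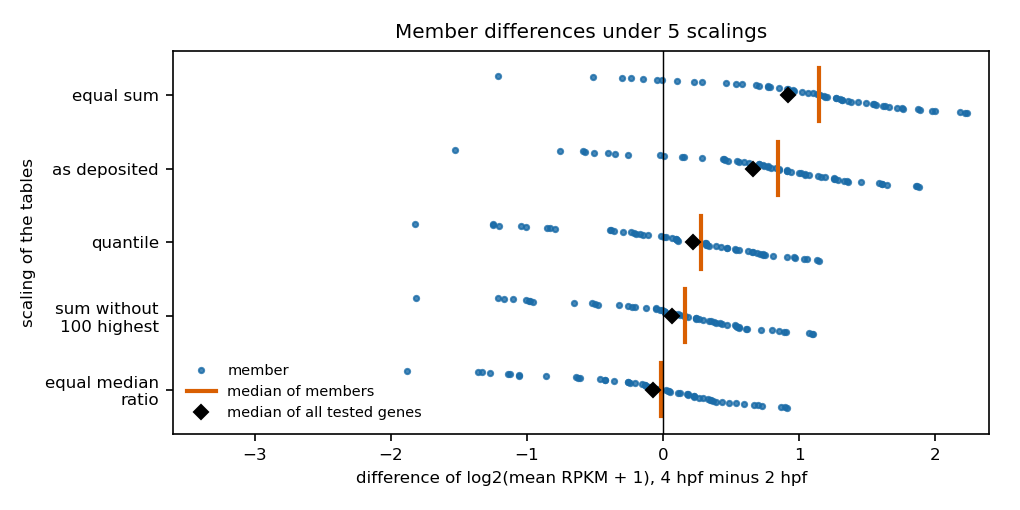
Difference of log2(mean RPKM + 1), 4 hpf minus 2 hpf, of each member (blue dots, sorted) under 5 scalings, with the median of members (orange bar) and of all tested genes (black diamond). The medians move together, from 1.15 and 0.92 after rescaling to an equal sum to -0.01 and -0.08 at an equal median ratio.

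Of the pore scaffold, the genes chosen by symbol were present at low to moderate levels. The outer ring, the Y-shaped complex that frames the pore on both faces of the envelope, had 6 measured members chosen by symbol. They lay between 0.770 and 3.21 RPKM at 2 hpf and between 2.05 and 11.7 RPKM at 4 hpf. NUP160, one of the ring's long scaffold arms, went from 3.21 to 11.7 RPKM, a difference of 1.59. It was the highest of these 6 at both ages. NUP107 (3.01 and 3.88 RPKM), NUP43 (2.23 and 5.09 RPKM), NUP37 (0.770 and 2.07 RPKM) and NUP133 (1.19 and 2.05 RPKM) differed less. SEH1L, a small beta-propeller subunit, was level at 2.45 and 2.48 RPKM. On the log2(RPKM + 1) scale, NUP160 alone of these 6 was thus past 2-fold as deposited. SEC13, an outer ring gene outside the symbol pattern, also passed it, with a difference of 1.60, and is given below. The plain RPKM ratios of NUP43 and NUP37 were 2.28 and 2.69. The difference of NUP160 stayed between 0.67 and 1.89 over the 5 scalings.

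The inner ring, which lines the membrane where both nuclear membranes meet, divided more sharply. Its large scaffold members were higher together at 4 hpf: NUP155 went from 2.11 to 8.49 RPKM, NUP205 from 3.33 to 9.38 RPKM, NUP188 from 2.63 to 7.69 RPKM and NUP93 from 0.675 to 2.75 RPKM. All 4 passed 2-fold as deposited, with differences of 1.16 to 1.61. Of all tested genes 33.0% passed the same call, as did 51.2% of those with at least 5 RPKM at either age. All 4 were positive under all 5 scalings, which a call past 2-fold nearly fixes. They lay 0.50 to 0.95 above the all-gene median, so none was 2-fold above it. NUP35, a small membrane-binding member, was at 8.82 and 5.92 RPKM, a difference of -0.50 that did not pass 2-fold as deposited but lay more than 2-fold below the all-gene median. It ranked 2838 of all tested genes at 2 hpf and 5855 at 4 hpf, while NUP155 moved from rank 8112 to 4705. At 2 hpf NUP35 had the highest level per length in the inner ring, and at 4 hpf it stood below NUP205, NUP155 and NUP188.

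Of the membrane and channel nucleoporins, only NUP58 passed 2-fold on the log2(RPKM + 1) scale as deposited, though NUP210 had a plain RPKM ratio of 2.73. The 3 membrane proteins, which anchor the pore, had differences of 0.64 to 0.91, with pom121 at 7.19 and 13.8 RPKM, NDC1 at 2.36 and 4.22 RPKM and NUP210 at 1.04 and 2.83 RPKM. In the central channel, NUP58 went from 3.95 to 11.6 RPKM and nup62l, named after the channel protein NUP62, from 9.31 to 15.8 RPKM. The difference of nup62l, 0.70, was close to the all-gene median, and that of NUP58 was 1.35, 0.69 above it.

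The 6 cytoplasmic-face genes, whose products meet export complexes as they leave, held none past 2-fold on the log2(RPKM + 1) scale as deposited. The plain RPKM ratios of RANBP2 and nup214 were 2.43 and 2.08. RANBP2, the filament protein that binds Ran, went from 2.32 to 5.63 RPKM, and nup214 from 2.93 to 6.10 RPKM. NUP88, its partner, was at 4.01 and 7.18 RPKM. NUP98 and RAE1, which bind each other and act in mRNA export, were at 3.84 and 4.38 RPKM and at 2.03 and 3.13 RPKM. The filament gene nup42 was level at 1.92 and 1.88 RPKM. The differences in this group ran from -0.02 to 0.998, and 4 of the 6 took either sign across the 5 scalings.

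Among the 24 nucleoporins chosen by symbol, the nuclear basket held the most abundant transcript. TPR (ENSDARG00000016630), the long coiled-coil protein of the basket, was at 31.0 RPKM at 2 hpf and 81.5 RPKM at 4 hpf. It ranked 631 and 421 of all tested genes, and another ID with that symbol is not analysed here. The next highest of the 24 were nup62l (9.31 and 15.8 RPKM) and, at 4 hpf, NUP50, at 7.98 and 15.01 RPKM. NUP50 is a basket protein that helps to release importin alpha from cargo. Over the 24 nucleoporins the median RPKM was 2.78 at 2 hpf and 5.78 at 4 hpf, below the 4.90 and 11.8 RPKM of the 23 importins and exportins. Of the nucleoporins, 7 were at least 2-fold higher and none at least 2-fold lower as deposited, and the 29.2% that were higher lay near the 33.0% of all tested genes.

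**Figure D3:**
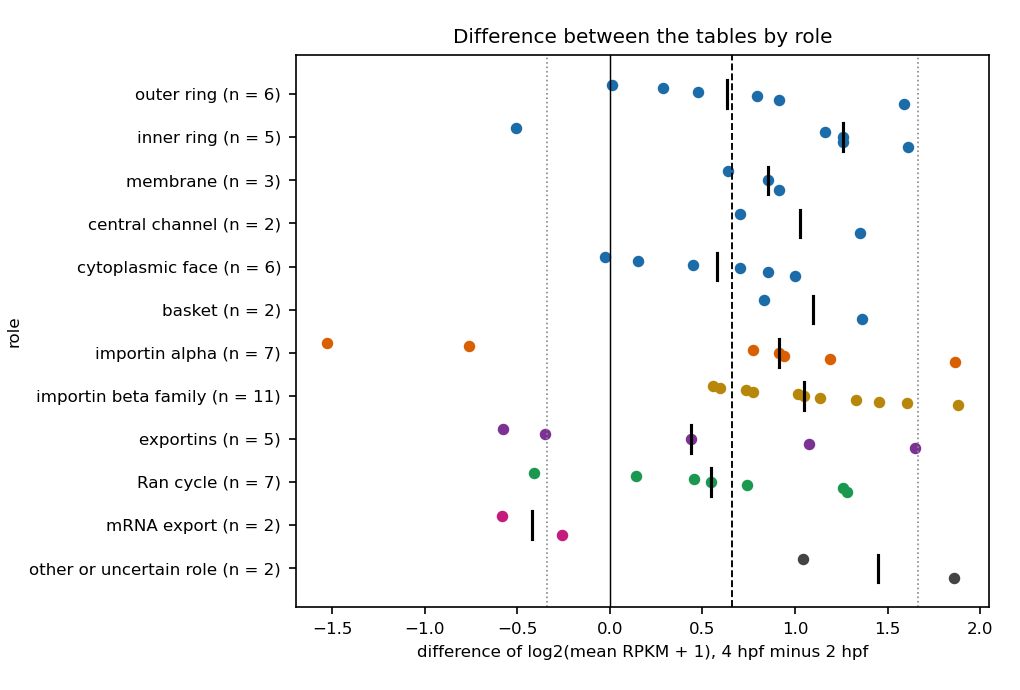
Difference of log2(mean RPKM + 1), 4 hpf minus 2 hpf, for each member by role. Black bars are role medians, the dashed line is the median of all tested genes at 0.66, and the dotted lines lie 2-fold to either side of it; all 11 members of the importin beta family are positive as deposited, and both mRNA export genes are negative.

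The importin alpha genes, adaptors that recognise the classical nuclear localization signal, spread more widely than any other role as deposited, from -1.53 to 1.87. KPNA4 was the most abundant at both ages, at 20.4 and 39.4 RPKM, followed by KPNA2 at 15.3 and 30.3 RPKM and KPNA6 at 8.73 and 21.2 RPKM. KPNA1 was low, at 0.997 and 2.41 RPKM. The gene kpna7 (ENSDARG00000027169), whose mammalian counterpart is known as an importin alpha of oocytes and early embryos, went from 4.32 to 18.4 RPKM, rank 5219 to rank 2621. KPNA3 (ENSDARG00000052641) went from 4.01 to 0.738 RPKM, rank 5505 to rank 11850, and KPNA5 from 1.68 to 0.582 RPKM, rank 9113 to rank 12058. At 2 hpf kpna7 and KPNA3 were thus at nearly the same level, and at 4 hpf they were far apart.

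Shares within the family do not depend on a common scale factor. Of the summed importin alpha RPKM, kpna7 held 7.79% at 2 hpf and 16.3% at 4 hpf, KPNA3 held 7.22% and 0.653%, and KPNA5 held 3.03% and 0.515%. KPNA4 (36.8% and 34.8%) and KPNA2 (27.6% and 26.8%) kept the larger part. KPNA3 at 4 hpf rested on 11.7 to 22.1 reads per kilobase. KPNA3 and KPNA4 are close relatives, as are KPNA1, KPNA5 and KPNA6, so reads that fit more than 1 of them may have been divided or dropped.

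The importin beta family, which carries cargo directly or with an adaptor, held no member on the lower side as deposited. All 11 measured members had a positive difference, as did 9736 of the 13341 tested genes. At least 2-fold higher were 7 of them, against 33.0% of all tested genes and 51.2% of those with at least 5 RPKM at either age. Under all 5 scalings 8 were positive, which the call nearly fixes for those 7. IPO8 and ipo4 lay below the all-gene median. IPO5 (ENSDARG00000040245), an importer of ribosomal proteins and histones, went from 26.1 to 81.7 RPKM and was, level with TPR, the highest of the members at 4 hpf. IPO7, which also carries ribosomal proteins and histones, went from 20.3 to 52.7 RPKM. IPO9, an importer of histones H2A and H2B, had a difference of 1.88, the widest among the members and close to those of kpna7 (1.87) and RANBP10 (1.86), from 7.59 to 30.6 RPKM. It ranked 3324 at 2 hpf and 1555 at 4 hpf.

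Transportins recognise other signals, among them those of hnRNP and SR proteins. TNPO1, the receptor of hnRNP A1, went from 3.69 to 11.8 RPKM and TNPO3, the receptor of SR splicing factors, from 7.69 to 18.1 RPKM. TNPO2 and tnpo2a were at 16.4 and 28.8 RPKM and at 10.7 and 22.7 RPKM. The least abundant members of the family were IPO11 (1.41 and 3.97 RPKM), IPO8 (1.90 and 3.38 RPKM), IPO13 (1.44 and 3.05 RPKM) and ipo4 (1.44 and 2.59 RPKM). In the family as a whole the differences ran from 0.56 for ipo4 to that of IPO9.

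Exportins carry proteins and some RNAs out of the nucleus with Ran-GTP, and the differences of those measured had both signs. XPO1 (CRM1) is the general receptor for leucine-rich export signals, and 2 gene IDs carried its name. The gene xpo1a (ENSDARG00000078041) went from 4.90 to 17.5 RPKM, and XPO1 (ENSDARG00000063229) from 2.39 to 1.27 RPKM. The ratio of xpo1a to XPO1 was 2.05 at 2 hpf and 13.8 at 4 hpf, and the gap between their differences was 2.23 as deposited, 1.74 to 2.28 under the 5 scalings, 1.42 with a pseudocount of 5 and 2.67 with one of 0.1. Summed over both IDs the level was 7.29 and 18.8 RPKM, of which xpo1a made up 67.3% and 93.2%. Reads common to both copies may have been assigned to 1 of them or dropped, and the pair was singled out after the values were seen. XPO7 went from 2.69 to 6.76 RPKM and XPO4, an exporter of eIF5A, from 5.31 to 7.56 RPKM. XPO6, the exporter of actin with profilin, went from 6.17 to 4.62 RPKM, rank 3962 to rank 6651, the other exportin on the lower side.

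**Figure D4:**
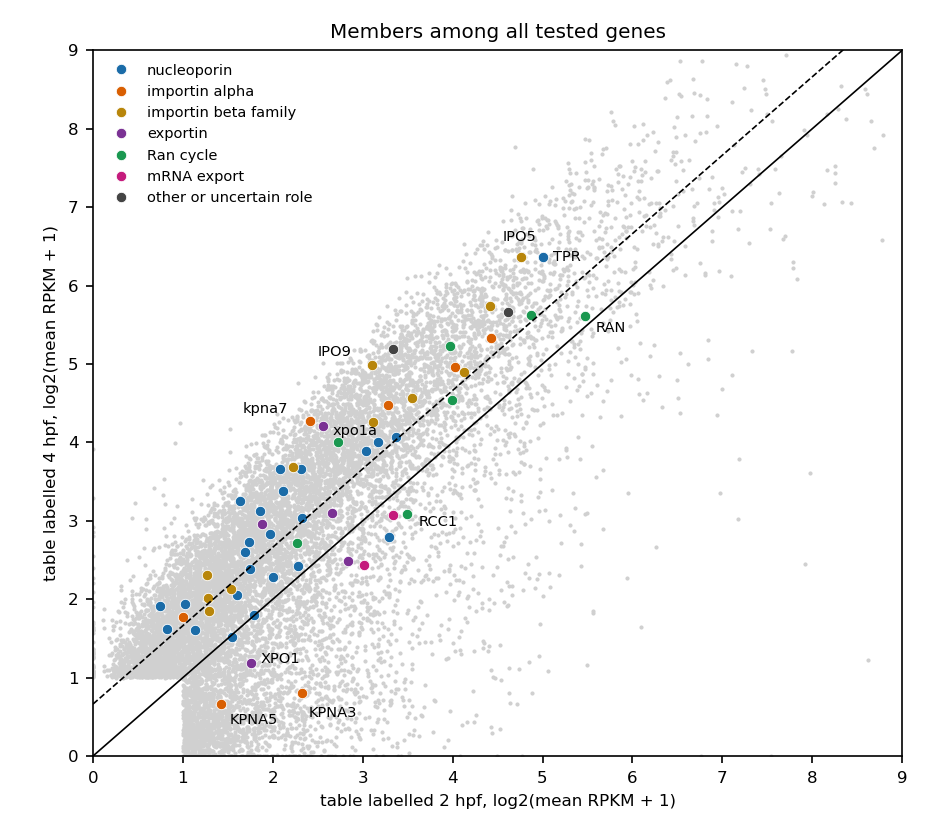
log2(mean RPKM + 1) at 4 hpf (vertical) and 2 hpf (horizontal) for all tested genes (grey) and members (coloured by role), with the line of equality (solid) and the all-gene median difference of 0.66 (dashed); genes beyond the axes are not drawn. IPO5, IPO9, kpna7 and xpo1a lie above the dashed line, and KPNA3, KPNA5, XPO1 and RCC1 below the solid line.

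Among the Ran cycle genes, 4 of 7 had differences below the median of all genes, near the even split that a median gives. They were RAN, RCC1, ranbp3a and 1 of 2 RANGAP1 IDs (ENSDARG00000056059). Of these, RCC1 alone lay at least 2-fold below that median. The gene ranbp1, at 0.74, also lay below the median of genes with at least 5 RPKM at either age, 1.02. RAN (ENSDARG00000057026) was the most abundant member of all at 2 hpf, at 43.4 RPKM, and was at 48.0 RPKM at 4 hpf, rank 408 and rank 881 of all tested genes. RCC1, the chromatin-bound exchange factor that makes Ran-GTP, went from 10.3 to 7.51 RPKM, rank 2417 to rank 5084. RANGAP1, which triggers hydrolysis of that GTP, was carried by 2 IDs, ENSDARG00000056059 at 14.98 and 22.3 RPKM and ENSDARG00000041317 at 5.61 and 15.1 RPKM. The share of ENSDARG00000041317 in their sum was 27.3% at 2 hpf and 40.4% at 4 hpf.

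Of the genes of Ran-binding proteins in the cycle, only RANBP3 passed 2-fold as deposited. The gene ranbp1, a helper of RanGAP1, was at 28.4 and 48.1 RPKM, close to RAN at 4 hpf but not at 2 hpf. RANBP3, a cofactor of XPO1, went from 14.7 to 36.5 RPKM, and ranbp3a was at 3.80 and 5.597 RPKM. The differences of ranbp1 and ranbp3a were 0.74 and 0.46. Of the 7 genes of the cycle, 2 were at least 2-fold higher and none lower as deposited, a share of 28.6% against 33.0% of all tested genes. All 7 reached 5 RPKM at either age. Of all genes that did so, 51.2% were at least 2-fold higher, and their median difference was 1.02. The median difference of the 7 was 0.54, and 4 took either sign across the scalings.

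Both mRNA export receptor genes that reached 1 RPKM had a negative difference as deposited, -0.26 for nxf1b and -0.58 for NXT2. Neither passed 2-fold, and 3605 of the 13341 tested genes were negative as well. The related gene nxf1a, below the limit, was listed only at 4 hpf, at 0.156 RPKM. The large subunit gene nxf1b was at 9.07 and 7.40 RPKM and the small subunit gene NXT2 at 7.09 and 4.39 RPKM, moving from rank 2751 to 5124 and from rank 3511 to 6831. After rescaling to an equal sum nxf1b turned to 0.10, while NXT2 remained negative at -0.23. The 2 members matched by pattern whose products have another role, RANBP9 and RANBP10, scaffold proteins of the CTLH ubiquitin ligase, were at 23.6 and 49.7 RPKM and at 9.08 and 35.6 RPKM.

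Genes of the same pathway outside the symbol pattern are given for comparison. Of 22 other nuclear transport genes with at least 1 RPKM, 8 were at least 2-fold higher and 2 at least 2-fold lower as deposited, shares of 36.4% and 9.09% that were close to the 33.0% and 10.9% of all tested genes. Their median difference was 0.80, against 0.66 over all tested genes. Most of the 22 reached 5 RPKM at either age. Of all genes that did so, 51.2% were at least 2-fold higher, with a median difference of 1.02. AHCTF1 (ELYS), which seeds pores on chromatin, went from 22.4 to 93.3 RPKM, well above any outer ring member in the list by symbol. SEC13, which belongs to the outer ring and to COPII coats, went from 6.69 to 22.3 RPKM, and CSE1L, the exporter of importin alpha, from 4.43 to 12.3 RPKM. PHAX, the snRNA export adaptor, went from 34.8 to 109 RPKM, and THOC3, a subunit of the THO complex in mRNA export, from 14.4 to 50.5 RPKM. The TREX-2 scaffold gene mcm3ap went from 5.77 to 24.9 RPKM while ENY2, a small TREX-2 and SAGA subunit, went from 9.82 to 4.17 RPKM. The genes named here as higher were all among the 8 past 2-fold, and do not stand for the rest of the 22.

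Of 10 nuclear envelope and lamina genes, 3 were at least 2-fold higher and none at least 2-fold lower as deposited, against 33.0% and 10.9% of all tested genes, with a median difference of 0.60. Most of the 10 reached 5 RPKM at either age, and 51.2% of all such genes were at least 2-fold higher. BANF1, the chromatin-bridging factor of nuclear envelope assembly, was the most abundant at 137 and 123 RPKM. LBR, the lamin B receptor, went from 19.0 to 39.9 RPKM and ANKLE2 from 8.03 to 25.9 RPKM, while LMNB1 was level at 14.1 and 14.7 RPKM and LMNA low at 1.64 and 0.763 RPKM.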

How the data were processed

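RNA precipitated with FLAG-tagged Ddx3xb was sequenced from zebrafish embryos of 2 ages, 4 samples in all. The deposited values are RPKM per Ensembl gene ID, made by the authors, with 1 mean per age, taken from how the tables were named. The build was Zv9 and the tools named were TopHat2 2.1.1, Bowtie, bedtools 2.16.2, MACS2 2.0.10, cutadapt 1.13 and Trimmomatic 0.36, per the submitters' processing notes. Their order and roles, the annotation and the counter are not stated there. Since RPKM shares a denominator, highly abundant features lower all others.

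A reference table named 20039 IDs. A gene missing from 1 table was set to 0. The difference was log2(RPKM + 1), 4 hpf minus 2 hpf, over genes whose higher value was at least 1 RPKM, and 2-fold counted as a call. With 1 mean per age, no test was possible. No column of another sample was used.

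Read totals were recovered from ratios of low values. The ratio 1.48 recurred in 276 genes, and 87.0% of these gave a whole gene length within 0.02 bases for 1 read. The RPKM step of 1 read was chosen for a high share of such genes, so the 87.0% is no separate check. Of 1296 genes under 0.1 RPKM in both tables, 90.6% lay at a ratio of at most 4 reads per library. That share uses ratios alone, taken from the same low values, so it cannot check the totals themselves. Which replicate is the deeper stays unknown. The totals are those in the RPKM denominator. The method was tested on simulated data made under its own assumptions, which cannot show that the deposited values meet them.

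Members, roles and lists were chosen with earlier results of these data known. Full values are given for members with at least 20 RPKM, those at least 2-fold from the all-gene median and the extremes of each role; other members are named as the list is short. The pairs of like-named genes, the scaling range and the read recovery were chosen after the data were seen. The alternatives were other pseudocounts, filters, scalings, genes listed in both tables, older symbols and a 4-fold threshold. Python 3.11.15, pandas 2.3.3 and numpy 2.4.6 were used. One listed transport gene enters the counts of its list and is otherwise not reported here.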

Additional observations from a re-analysis of the deposited data

How the results depend on the processing

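No paired analysis was possible because the tables carry no replicate values, so replicates could not be left out in turn either. Precision is limited by the missing replicate spread, the missing input and unequal library depth, with the deeper library 2.08 times the other at 2 hpf and 1.90 times at 4 hpf. Tolerances were 1.5 times for counts and 0.25 for differences. Older symbols added 0 members and use of only genes listed in both tables moved none of the counts or medians of members.

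Members at least 2-fold higher numbered 22 as deposited, 9 with a pseudocount of 5, 34 at an equal sum, 0 at an equal median ratio, 4 after quantile normalization, 3 without the 100 highest genes in the sum and 0 at 4-fold. Over all tested genes, the higher calls numbered 4409 as deposited, 1907 with a pseudocount of 5 and 291 at 4-fold. All-gene counts under the scalings are given with the Results. Members at least 2-fold lower numbered 1 as deposited, 2 with a pseudocount of 0.1, 0 when 5 was added instead, 0 with a filter of 5 RPKM, 8 at an equal median ratio, 6 after quantile normalization, 5 without the 100 highest and 0 at 4-fold. The lower calls over all tested genes numbered 1452 as deposited, 2152 with a pseudocount of 0.1 and 371 with one of 5. With the filter of 5 RPKM they numbered 607 of 7017 genes, and at 4-fold 342. The median difference of members was 0.84 as deposited, 0.49 with a pseudocount of 5, 1.15 at an equal sum, -0.0124 at an equal median ratio, 0.28 after quantile normalization and 0.16 without the 100 highest.

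Relative to the median of all genes, counts chosen after the data were seen, 3 members lay above and 7 below. Members above numbered 19 without a filter, 0 with a filter of 5 RPKM, 5 at an equal sum, 0 at an equal median ratio, 0 after quantile normalization and 0 at 4-fold. Members below numbered 0 when 5 was the pseudocount, 1 with no filter and 1 at 4-fold. The same counts over all tested genes were not made for these alternatives. Without a filter the median of all genes was 0.05, since 27205 mostly low genes enter it. No single member past 2-fold as deposited changed sign under any of these settings. Pseudocounts, filters and the 4-fold threshold cannot change a sign. The scalings moved member differences by little more than the 2-fold of the call at most. The outcome was thus nearly fixed by the call and is no separate support. The narrowest margin was that of RANBP9, at 1.04 as deposited and 0.04 at an equal median ratio. The cause of the moves was not tested.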
